A study of Mus musculus with 24 samples.

Results

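The genes of whey and other secreted milk proteins described here are Wap, Lalba, Glycam1, Wfdc18, Lao1, Spp1, Cel and Folr1. They were chosen by name: every non-control probe of the array that carries one of these 8 names was taken, which gave 11 of 56605 probes, and all 11 passed the filter on dim probes. That filter asks for a signal well above background on 80% of the arrays of any group. Both Wap probes, the Lao1 probe and the second probes of Glycam1 and Folr1 passed only through the day-18 groups, where they are high. Their passing is therefore no separate sign of a difference between stages. The 8 genes are among 22382 genes tested. The samples were inguinal (number 4) mammary glands of C57BL/6 females, freed of the lymph node, 1 gland sample and 1 array per mouse. Of the 24 mice, 5 were homozygous for the R96C knock-in allele of SOCS2 and at pregnancy day 18 (SOCS2_KI_G18), and 5 were wild type at that day (WT_G18). A further 7 were knock-in virgins of 8 weeks (SOCS2_KI_V8w), and 7 were wild-type virgins of that age (WT_V8w). The study asked how the SOCS2 mutation affects development and function of the gland. The labels give neither the age of the day-18 mice nor the oestrous stage of the virgins, so pregnancy and age cannot be told apart. Expression probes cannot tell the R96C allele from the wild-type one, and each mouse's genotype is taken from its label.

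Whey is the soluble part of milk, left when the caseins are removed. Its genes are used by the secretory luminal cells of the alveoli, which form in pregnancy and respond to prolactin through the kinase JAK2 and the transcription factor STAT5, together with glucocorticoids. SOCS2 is an inhibitor of growth hormone and prolactin receptor signalling. Wap encodes whey acidic protein, the main whey protein of rodent milk, and Lalba encodes alpha-lactalbumin, the partner of the galactosyltransferase B4GALT1 in lactose synthesis. Glycam1 encodes a mucin-like glycoprotein of milk that also carries L-selectin ligands in lymph nodes, and Wfdc18, also called Expi or WDNM1, a small protein of the whey acidic protein family. Lao1 encodes an L-amino acid oxidase of mouse milk that releases hydrogen peroxide, Spp1 osteopontin, Cel the bile salt-stimulated lipase of milk and pancreas, and Folr1 a folate-binding receptor whose shed form is found in milk.

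Sequences are shown for the genes with the most and the least similar behaviour across glands. Wap is read by a pair of 60-base probes, printed because every statement on this gene rests on them. Capitals mark the run of 43 bases that the probes share, so they are not separate readings of the gene. Probe 1, the brighter, stands for the gene and spans 1140 bp on chromosome 11, minus strand, on the mm9 build that the files use; probe 2 lies within 60 bp there.
Wap probe 1, chr11:6535617-6536756: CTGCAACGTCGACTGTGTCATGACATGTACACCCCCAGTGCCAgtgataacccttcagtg
Wap probe 2, chr11:6536714-6536773: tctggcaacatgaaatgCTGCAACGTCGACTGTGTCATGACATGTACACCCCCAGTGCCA

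The 250 bases upstream of the start site are shown for Wap and Glycam1, whose values were the most alike over the 24 arrays, and for Wfdc18, whose virgin values differed from theirs. The sequences are RefSeq's, on GRCm38.p6. Capitals mark TTCNNNGAA, the palindrome bound by STAT5, AGGAAG, an Ets-family core of the type that ELF5 binds, and TATAAA, the TATA box.
Wap, chr11:6638650-6638899, minus strand: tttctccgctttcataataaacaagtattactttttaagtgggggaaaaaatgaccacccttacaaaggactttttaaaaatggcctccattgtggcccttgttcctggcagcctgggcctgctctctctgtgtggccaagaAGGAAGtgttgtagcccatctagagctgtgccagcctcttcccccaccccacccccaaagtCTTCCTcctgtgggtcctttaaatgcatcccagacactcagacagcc
Glycam1, chr15:103565082-103565331, minus strand: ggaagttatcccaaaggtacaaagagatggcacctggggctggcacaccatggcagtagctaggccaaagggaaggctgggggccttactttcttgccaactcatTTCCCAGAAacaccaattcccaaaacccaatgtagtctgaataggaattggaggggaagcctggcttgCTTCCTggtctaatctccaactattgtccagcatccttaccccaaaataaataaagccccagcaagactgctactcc
Wfdc18, chr11:83708754-83709003, plus strand: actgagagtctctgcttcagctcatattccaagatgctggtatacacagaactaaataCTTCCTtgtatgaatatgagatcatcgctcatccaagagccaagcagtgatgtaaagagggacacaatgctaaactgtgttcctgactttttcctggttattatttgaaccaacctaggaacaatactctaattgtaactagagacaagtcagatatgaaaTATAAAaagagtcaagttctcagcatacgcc

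The promoter table holds 7 of the 8 genes, all but Folr1. On either strand, TTCNNNGAA was found in 1 of the 7, Glycam1, and in 7.02% of 32851 promoters of the same length. AGGAAG was found in 5 of the 7 (Wap, Lalba, Glycam1, Wfdc18 and Spp1) and in 29.5% of all promoters, and TATAAA in 2 (Wfdc18 and Spp1) and in 12.4%. These are matches of letters in 250 bases and not measured binding sites.

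The values are log2 signals with the array's own 75th percentile subtracted, so 0 stands for that percentile, and each difference below is between such values. Of the arrays, 22 had 33374 to 39174 of 59305 non-control spots well above background, knock-in pregnant mouse 184 had 43055 and knock-in virgin mouse 376 had 57003. On the array of mouse 376 the negative-control spots had a median of 58.7, where those of the other mice ran from 1.90 to 6.76, so dim values are raised on it. The mean log2 level of 16 luminal epithelium markers was −3.99 in knock-in virgin 198, with the next knock-in virgin at 0.39, and that array had the highest level of 11 skeletal muscle markers, 6.92. Wild-type virgin 320, at 6.41, and knock-in pregnant mouse 211, at 5.25, were also high for muscle markers. Results that rest on mice 376 and 198 are given with and without them. Each of the 3 slides held arrays of all 4 groups. Socs2 itself did not differ by genotype past the test, with knock-in minus wild type at −0.59 ± 0.35 (SE) in virgins and 0.04 ± 0.42 at day 18 (limma, adjusted p = 0.702 and 1.00).

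At pregnancy day 18 all 8 genes were far higher than in virgins, in both genotypes. In knock-in mice the 8 log2 differences lay between 6.27 (Wfdc18) and 13.37 (Wap), with a median of 9.65. In wild-type mice they lay between 4.61 (Wfdc18) and 11.36 (Lao1), with a median of 8.94. Over all genes the median difference was 0.05 in knock-in and 0.01 in wild-type mice. All 8 passed the test as higher (limma over all genes, Benjamini-Hochberg adjusted p under 0.05), as did 22.9% of all genes in knock-in mice and 20.9% in wild-type mice. In either direction, 43.2% of all genes passed in knock-in and 41.8% in wild-type mice. For all 8, every day-18 gland was above every virgin gland of its genotype, which held for 12.6% of all genes in knock-in mice and 20.3% in wild-type mice. A called rise of at least 4 on the log2 scale was also seen for all 8, against 1.02% of all genes in knock-in and 1.05% in wild-type mice. In whole glands, more secretory cells and more RNA per cell cannot be told apart.

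**Figure D1:**
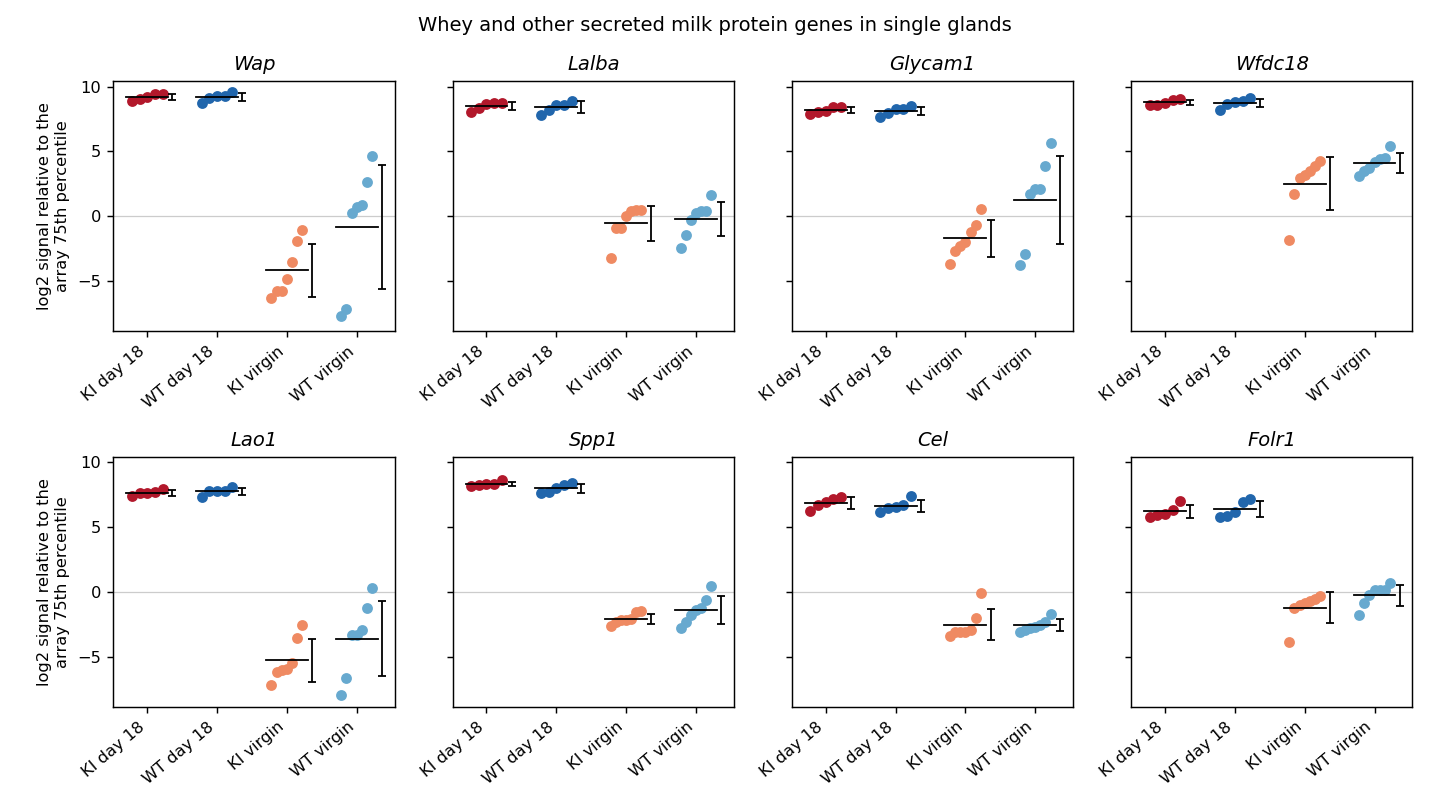
Log2 signal of the 8 genes in single glands. Each point is 1 array, with knock-in (KI) left of wild type (WT) and day 18 left of virgin; the horizontal line is the group mean and the bar beside it the SD (n = 5 at day 18, n = 7 in virgins). In every panel the day-18 points lie above the virgin points, and the Wap, Glycam1 and Lao1 panels have widely spread virgin points.

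Wap had 9.06, 9.39, 9.20, 9.42 and 8.92 in the 5 knock-in glands at day 18, and 9.25, 9.10, 9.28, 8.72 and 9.55 in the 5 wild-type glands. In knock-in virgins it ran from −6.33 over a median of −4.82 to −1.05, and in wild-type virgins from −7.72 over a median of 0.69 to 4.61. The pregnant glands of both genotypes lay close together, while the virgins were widely spread, and no virgin reached a pregnant gland. The day-18 difference was 13.37 ± 1.56 (SE), or 10577-fold, in knock-in mice (limma, adjusted p = 4.22e-07) and 10.02 ± 1.56, or 1037-fold, in wild-type mice (adjusted p = 1.93e-05). Wap was well above background in 4 of 7 knock-in and 5 of 7 wild-type virgins, and in all 10 pregnant glands. Mouse 376, with its raised dim values, was among these knock-in virgins and gave the −1.05. With each dim array held at its lowest signal well above background, the folds were 10122 and 734. Probe 2 was well above background in 3 of 7 knock-in virgins, mouse 376 among them, and in 5 of 7 wild-type virgins. With its dim arrays held in the same way, its differences were 14.01 in knock-in and 9.77 in wild-type mice, and the correlation of the 2 probes over the 24 arrays was 0.997.

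Glycam1 had 8.04, 8.39, 8.14, 8.46 and 7.92 in knock-in glands at day 18, and 8.30, 7.99, 8.27, 7.69 and 8.48 in wild-type glands. Among knock-in virgins its values ran from −3.71 over a median of −2.02 to 0.59, and in wild-type virgins from −3.75 over a median of 2.08 to 5.61. As with Wap, the virgins were spread and the pregnant glands close together. The difference was 9.91 ± 1.11 (959-fold) in knock-in mice (limma, adjusted p = 2.67e-07) and 6.90 ± 1.11 (119-fold) in wild-type mice (adjusted p = 3.01e-05). A second probe 152 bp away was well above background in 4 of 7 knock-in virgins, mouse 376 among them, and in 5 of 7 wild-type virgins. With its dim arrays held at the lowest signal well above background it gave 12.55 in knock-in and 9.28 in wild-type mice, and its correlation with the first was 0.993 over the 24 arrays. Glycam1 is also made by the high endothelial venules of lymph nodes. The 12 markers of these vessels and of lymph node cells gave 9 tested genes, of which 2 were higher and 4 lower at day 18 in knock-in mice, and 2 higher and 2 lower in wild-type mice. In either direction, 43.2% of all genes passed in knock-in and 41.8% in wild-type mice, and the wild-type calls are near that share. Chst4, not tested, was well above background in 4 of 7 knock-in and 3 of 7 wild-type virgins. At day 18 it was so in 1 of 5 knock-in and 0 of 5 wild-type glands. The higher genes were Madcam1, the adhesion molecule of these venules, at 3.60 ± 0.78 in knock-in and 4.13 ± 0.78 in wild-type mice, and Gcnt1, an enzyme of L-selectin ligand synthesis, at 1.86 ± 0.33 and 1.57 ± 0.33. Madcam1 was well above background in 2 of 7 knock-in and 3 of 7 wild-type virgins. With its dim arrays held at the lowest signal well above background, its differences were 2.41 in knock-in and 3.38 in wild-type mice. Of the lower genes, Lyve1 was at −2.90 ± 0.83 in knock-in and −2.70 ± 0.83 in wild-type mice. Ms4a1 was at −2.12 ± 0.75 in knock-in mice, with 1 of 5 day-18 glands well above background. Fut7 was at −1.77 ± 0.45 in wild-type mice. The part of venules in the Glycam1 values was not tested.

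Lao1 had 7.36, 7.67, 7.95, 7.60 and 7.59 in knock-in glands at day 18, and 7.82, 7.82, 8.08, 7.32 and 7.75 in wild-type glands. Its knock-in virgins ran from −7.19 over a median of −5.98 to −2.57, and in wild-type virgins from −7.98 over a median of −3.32 to 0.28. Its rise was 12.92 ± 1.00 (7767-fold) in knock-in mice (limma, adjusted p = 9.89e-10) and 11.36 ± 1.00 (2634-fold) in wild-type mice (adjusted p = 7.72e-09). It was well above background in 3 of 7 knock-in and 5 of 7 wild-type virgins. Mouse 376, with its raised dim values, was among these knock-in virgins and gave the −2.57. With the dim arrays held at the lowest signal well above background, the folds were 5728 and 1915.

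Lalba, which sets the rate of lactose synthesis, had 8.06, 8.70, 8.65, 8.76 and 8.33 in knock-in glands at day 18, and 8.61, 8.61, 8.92, 7.77 and 8.22 in wild-type glands. In knock-in virgins it ran from −3.24 over a median of −0.0018 to 0.50, and in wild-type virgins from −2.46 over a median of 0.28 to 1.60. It was above background on every array, and its SD was 1.34 in both groups of virgins, against 1.41 for Glycam1 in knock-in and 3.42 in wild-type virgins. The rise was 9.03 ± 0.59 (524-fold) in knock-in mice (limma, adjusted p = 7.60e-11) and 8.64 ± 0.59 (398-fold) in wild-type mice (adjusted p = 1.55e-10).

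Wfdc18 had 8.61, 8.99, 8.77, 9.02 and 8.56 in knock-in glands at day 18, and 8.84, 8.64, 8.86, 8.22 and 9.08 in wild-type glands. In knock-in virgins it ran from −1.82 over a median of 3.20 to 4.26, and in wild-type virgins from 3.12 over a median of 4.17 to 5.41. Apart from mouse 198 at −1.82, its virgin values were all above the 75th percentile of their array, and its rise was the smallest among the 8 genes. It was 6.27 ± 0.67 (77.1-fold) in knock-in mice (limma, adjusted p = 1.51e-07) and 4.61 ± 0.67 (24.4-fold) in wild-type mice (adjusted p = 9.50e-06). Without mouse 198 the knock-in rise was 5.55.

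Spp1 had 8.14, 8.24, 8.60, 8.30 and 8.29 in knock-in glands at day 18, and 8.03, 8.26, 8.39, 7.71 and 7.62 in wild-type glands. Values in knock-in virgins ran from −2.61 over a median of −2.17 to −1.51, and in wild-type virgins from −2.79 over a median of −1.40 to 0.48. The knock-in virgins were tight, with an SD of 0.40. The rise was 10.38 ± 0.37 (1334-fold) in knock-in mice (limma, adjusted p = 2.12e-15) and 9.38 ± 0.37 (667-fold) in wild-type mice (adjusted p = 1.52e-14), the smallest p values among the 8 genes. Osteopontin is also made by macrophages. All 13 macrophage markers were tested. At day 18, 9 were lower, 1 (Cd14) was higher and 3 did not pass in each genotype. In either direction, 43.2% of all genes passed in knock-in and 41.8% in wild-type mice. The part of macrophages in the Spp1 values was not tested.

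Cel had 6.90, 6.69, 7.29, 6.22 and 7.20 in knock-in glands at day 18, and 6.46, 6.73, 7.36, 6.58 and 6.13 in wild-type glands. In knock-in virgins it ran from −3.40 over a median of −3.10 to −0.07, the highest being mouse 376, and in wild-type virgins from −3.07 over a median of −2.72 to −1.70. The rise was 9.40 ± 0.42 (675-fold) in knock-in mice (limma, adjusted p = 1.16e-13) and 9.24 ± 0.42 (606-fold) in wild-type mice (adjusted p = 1.47e-13). Cel is also a pancreatic gene. Of 16 acinar markers, 6 were tested, of which Sycn rose, Cela1 fell and Ctrb1, Ctrl, Cela2a and Clps did not pass at day 18 in both genotypes. In either direction, 43.2% of all genes passed in knock-in and 41.8% in wild-type mice. Sycn was well above background in 2 of 7 knock-in and 1 of 7 wild-type virgins, so it passed the filter on dim probes only through day-18 glands. It also belongs to the list of other milk proteins and secretion genes below. Ctrb1 and Clps were well above background on all 24 arrays. The other 10 were not tested: Prss1, Cpa1 and Pnlip were well above background on 1 array, that of mouse 376, Prss2 on 1 array in each of 3 groups, and Cpb1 on none. The part of pancreas-type transcripts in the Cel values was not tested.

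Folr1 had 6.00, 5.80, 7.01, 5.91 and 6.33 in knock-in glands at day 18, and 5.83, 6.92, 7.18, 5.81 and 6.19 in wild-type glands. The knock-in virgins ran from −3.90 over a median of −0.82 to −0.28, and in wild-type virgins from −1.76 over a median of 0.14 to 0.65. The rise was 7.43 ± 0.49 (172-fold) in knock-in mice (limma, adjusted p = 8.52e-11) and 6.63 ± 0.49 (99.2-fold) in wild-type mice (adjusted p = 5.61e-10). A second Folr1 probe, 10126 bp away on mm9, was much dimmer. It was well above background in all 10 pregnant glands, in 1 of 7 knock-in virgins (mouse 376) and in 0 of 7 wild-type virgins. Its day-18 difference in wild-type mice was at least 5.33-fold. On the values as measured, that log2 difference was 4.39 (limma, adjusted p = 6.70e-05 over all probes). In knock-in mice its groups overlapped, because mouse 376 read −1.50. With the dim arrays held at the lowest signal well above background, day 18 was 2.91-fold higher. On the values as measured, the log2 difference was 3.30 (exact p = 0.0152). Without mouse 376, 0 of 6 knock-in virgins were well above background and the groups no longer overlapped (exact p = 0.00216).

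In exact permutation tests of day 18 against virgin glands, over 792 splits and two-sided, p was 0.00126, the smallest that they can give, for all 8 genes in knock-in mice and for 6 genes in wild-type mice. Wap and Glycam1 in wild-type mice had an exact p of 0.00253. Within each of the 3 slides, every one of the 8 day-18 differences was positive in both genotypes. For Wap they were 11.34, 14.59 and 15.11 in knock-in mice and 10.57, 7.51 and 11.34 in wild-type mice, where slide 3 holds 1 pregnant knock-in mouse and slide 1 holds 1 pregnant wild-type mouse.

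Luminal epithelium markers were also higher at day 18: 11 of 16 rose in knock-in and 9 of 16 in wild-type mice, against 22.9% and 20.9% of all genes. The median differences of these markers were 3.07 and 2.10. Their mean level lay between 2.97 and 3.48 in knock-in glands at day 18, between 2.80 and 3.27 in wild-type glands at day 18, between −3.99 and 1.47 in knock-in virgins and between −0.28 and 1.96 in wild-type virgins. With the luminal and muscle levels of each array as covariates, all 8 genes still passed as higher in both genotypes. The Wfdc18 difference was then 3.31 in knock-in and 2.80 in wild-type mice, and the Lalba difference 7.06 and 7.49. The Folr1 difference was 5.24 and 5.42, and the Spp1 difference, 10.43 and 9.39, was almost that without covariates.

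The wild-type virgins differed most in Wap, Glycam1 and Lao1, and fell into separate sets. Wap was between 0.22 and 4.61 in 5 of the 7 wild-type virgins (188, 256, 317, 318 and 320), and at −7.18 and −7.72 in mice 365 and 369. Glycam1 was between 1.73 and 5.61 in the same 5, and at −3.75 and −2.95 in mice 365 and 369. Lao1 was between −3.34 and 0.28 in the 5, and at −7.98 and −6.65 in the other two. None of the 7 knock-in virgins had a Wap value above −1.05, read in mouse 376, or a Glycam1 value above 0.59. The genotypes overlapped all the same: Glycam1, on the probe that stands for it and was above background on every array, was lower in mice 365 and 369 than in most knock-in virgins. For Wap and for the second Glycam1 probe, mice 365 and 369 and knock-in virgins 251, 313 and 384 were not well above background, so their values have no order.

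The luminal marker level of mice 365 and 369 was 1.51 and 1.48, within the 1.19 to 1.96 of wild-type virgins other than mouse 317, which was at −0.28 and had Wap at 0.69. Elf5, the Ets factor of the luminal secretory lineage, was at 0.95 in mouse 365 and 0.53 in mouse 369, against −1.21 to 1.80 in the other wild-type virgins. Knock-in virgin 198, at −5.95 for Elf5, was low in Lalba (−3.24), Wfdc18 (−1.82) and Folr1 (−3.90) but had Wap at −4.82 and Glycam1 at −2.02, near the medians of its group. Csn2, the beta-casein gene, was at −7.91 and −7.80 in mice 365 and 369 and between 0.35 and 3.90 in the other wild-type virgins.

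**Figure D2:**
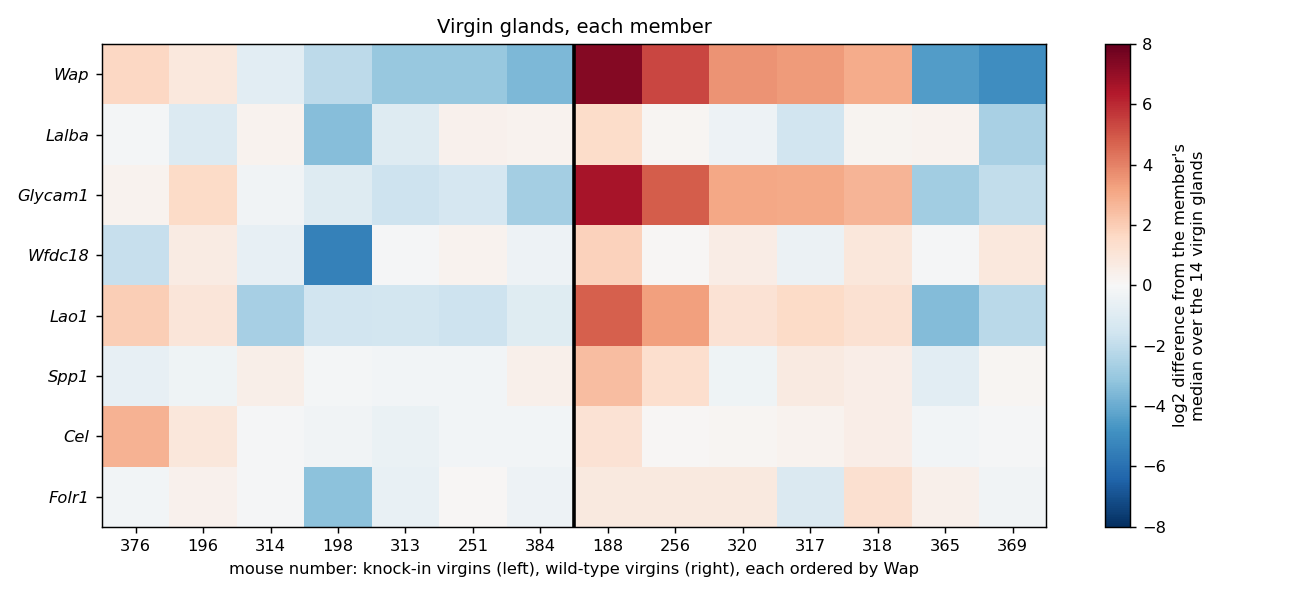
The 14 virgin glands (columns, by mouse number) and the 8 genes (lines down the page), coloured by the log2 difference from the gene's median over the 14 glands. Knock-in virgins are left of the black line and wild-type virgins right of it, each ordered by Wap; mice 365 and 369 stand at the right end with low Wap, Glycam1 and Lao1, and mouse 198 is low in Lalba, Wfdc18 and Folr1.

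Single glands were high across several of the genes. Wild-type virgin 188 was the highest of the 14 virgins for 6 of the 8 genes and among the highest 5 for all 8. The exceptions were Cel, highest in knock-in virgin 376 at −0.07 with mouse 188 at −1.70, and Folr1, highest in wild-type virgin 318 at 0.65. The lowest of the 14 was mouse 198 for 3 genes, wild-type mouse 365 for 3, knock-in mouse 313 for 1 and wild-type mouse 369 for 1. For Wap (mouse 369) and Lao1 (mouse 365) the lowest is one of several arrays not well above background, and its rank has no meaning.

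The SD between wild-type virgins was 4.76 for Wap, 3.42 for Glycam1 and 2.87 for Lao1, against a median of 0.27 over all genes. For Wap, 99.97% of genes had a smaller SD, for Glycam1 99.86% and for Lao1 99.79%. For Lalba the SD was 1.34, for Spp1 1.09, for Folr1 0.82, for Wfdc18 0.76 and for Cel 0.46. In knock-in virgins Wfdc18 had the largest SD among the 8 genes, 2.08, with mouse 198 far below the others, Wap had an SD of 2.06, Lao1 of 1.63 and Glycam1 of 1.41, against a median of 0.67 over all genes, and 96.7% of genes had a smaller SD than Wap. At day 18 the spread was small: 0.17 (Spp1) to 0.49 (Folr1) in knock-in and 0.28 (Lao1) to 0.63 (Folr1) in wild-type glands, against medians of 0.34 and 0.29 over all genes.

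**Figure D3:**
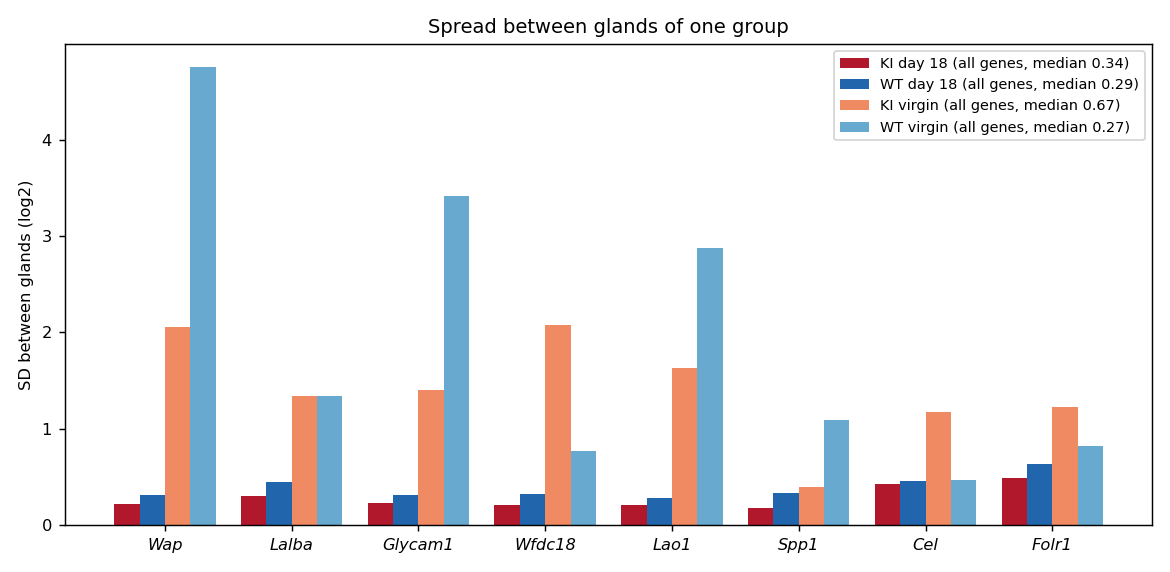
SD of the log2 signal between glands of one group, for each of the 8 genes (bars: knock-in day 18, wild-type day 18, knock-in virgin, wild-type virgin; n = 5 at day 18, n = 7 in virgins). The legend gives the median SD over all genes; Wap, Glycam1 and Lao1 in wild-type virgins stand highest, and all day-18 bars are at or below 0.63.

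In virgins, 7 of the 8 genes had a lower mean in knock-in than in wild-type glands, and none passed the test over all genes. The share of all genes that passed was 0%, with 802 of 22382 (3.58%) at an unadjusted p under 0.05. The median difference of the 8 genes was −1.28, against −0.05 over all genes. It was −1.04 for 16 luminal epithelium markers and −0.65 for 10 basal and myoepithelial markers, none of which passed, so a lower median was not particular to the 8 genes. Of the 8 genes, 4 had an unadjusted p under 0.05, all lower, against 2.13% of all genes lower. In a fit to the virgin arrays alone the count was 1, Glycam1. Single glands were high or low in several of the genes at once, though not in all, so the genes are not separate replicates of the genotype. Adjusted p (limma) was 0.702 for 6 of the genes, 0.781 for Lalba and 0.948 for Cel.

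Wap averaged −4.17 ± 2.06 (SD) in knock-in and −0.84 ± 4.76 in wild-type virgins, a difference of −3.33 with a 95% interval of −6.27 to −0.39 (exact p = 0.117 over 3432 splits, two-sided). Glycam1 averaged −1.72 ± 1.41 and 1.24 ± 3.42, a difference of −2.96 (−5.06 to −0.86, exact p = 0.0589). Wfdc18 averaged 2.52 ± 2.08 and 4.12 ± 0.76, a difference of −1.60 (−2.87 to −0.32, exact p = 0.0414). In the fit to all 24 arrays the intervals exclude 0 for each gene taken singly; in a fit to the virgin arrays alone they were −7.09 to 0.43 for Wap, −5.65 to −0.28 for Glycam1 and −3.22 to 0.02 for Wfdc18. None of the 3 passed after adjustment over all genes in either fit, and the groups overlapped for each. Folr1 differed by −0.97 (exact p = 0.0857), Lao1 by −1.68 (exact p = 0.200) and Spp1 by −0.69 (exact p = 0.143). Lalba, at −0.32 (exact p = 0.668), and Cel, at 0.05 (exact p = 0.940), differed least. Wap probe 2 differed by −4.37 (exact p = 0.0490), and the second Glycam1 probe by −2.99 (exact p = 0.133). Wap probe 2 shares 43 bases with probe 1 and is not a separate reading. Both Wap probes, Lao1 and the second Glycam1 probe were not well above background in some virgins of each genotype. Their virgin differences, intervals and exact p, here and below, use those dim values as measured, so the sizes are uncertain.

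The difference of Wfdc18 rested in part on mouse 198. Without that mouse Wfdc18 differed by −0.87 (exact p = 0.0816), Folr1 by −0.52 (exact p = 0.171) and Lalba by 0.13 (exact p = 0.822). Without both 198 and 376, which was chosen after the data were seen, Wfdc18 differed by −0.57 (exact p = 0.183), Wap by −3.83 (exact p = 0.119) and Glycam1 by −3.10 (exact p = 0.101). Without mouse 376 alone, Wap differed by −3.85 (exact p = 0.0903) and Lao1 by −2.13 (exact p = 0.121). The luminal marker level had a median of 0.87 in knock-in and 1.51 in wild-type virgins, with overlapping groups, and 16 of 16 markers did not pass. With the luminal and muscle levels as covariates, Wap differed by −3.24 and Glycam1 by −2.86, while Wfdc18 differed by −0.46 and Folr1 by −0.24. Within slides 1, 2 and 3, Wap differed by −0.88, −6.96 and −3.84 and Glycam1 by −1.38, −5.13 and −3.48.

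**Figure D4:**
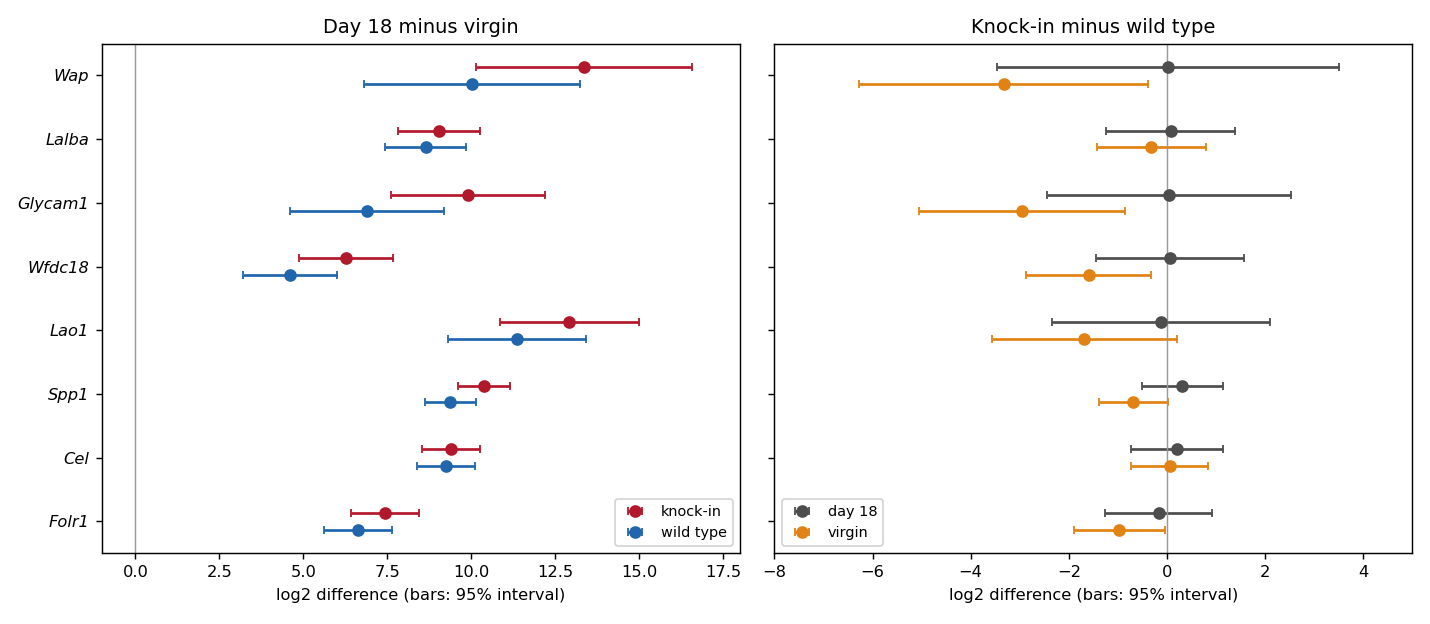
Log2 differences of the 8 genes with 95% intervals from limma. Left, day 18 minus virgin in knock-in (red) and wild-type (blue) mice, all between 4.61 and 13.37; right, knock-in minus wild type at day 18 (grey), near 0, and in virgins (orange), where 7 of 8 points lie below 0.

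At day 18 the genotypes lay close together. Differences ran from −0.17 (Folr1) to 0.31 (Spp1), 6 positive and 2 negative, with a median of 0.05 against −0.00092 over all genes. None of the 8 passed (limma, adjusted p = 1.00 for each), nor did any of all genes (0%), while 441 (1.97%) had an unadjusted p under 0.05, 0.724% of all genes as lower. The fit to all 24 arrays gave wide intervals for genes that vary in virgins, −3.46 to 3.49 for Wap. A fit to the pregnant arrays alone put the Wap difference at 0.02 with a 95% interval of −0.36 to 0.40, that of Lalba at 0.07 (−0.43 to 0.58), that of Glycam1 at 0.04 (−0.35 to 0.44) and that of Wfdc18 at 0.06 (−0.33 to 0.45). Spp1 had the largest difference there, 0.31 (−0.07 to 0.70, exact p = 0.127 over 252 splits). Folr1 differed by −0.17 (−0.90 to 0.55), Lao1 by −0.12 (−0.49 to 0.24) and Cel by 0.21 (−0.37 to 0.79). The sign of these differences turned for 6 of the 8 genes when arrays were scaled on their median, a scaling that moved the median of all genes to −0.37.

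Among the 10 pregnant glands, wild-type mouse 232 was the lowest for 5 of the 8 genes and wild-type mouse 206 the highest for 4. Wild-type mouse 235 was highest for 3 genes and lowest for 2. The knock-in glands held 1 highest value (mouse 184, Spp1) and 1 lowest value (mouse 210, Folr1).

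The genotype difference at day 18 minus that in virgins, which tests whether the rise differs between genotypes, did not pass for any of the 8 genes (limma, adjusted p = 1.00). None of all genes passed (0%), and 228 had an unadjusted p under 0.05. It was 3.35 ± 2.20 (SE) for Wap, 3.01 ± 1.57 for Glycam1, 1.66 ± 0.95 for Wfdc18, 1.56 ± 1.41 for Lao1, 1.00 ± 0.52 for Spp1, 0.80 ± 0.69 for Folr1, 0.40 ± 0.83 for Lalba and 0.16 ± 0.59 for Cel. All 8 were positive. For 7 genes this repeats the lower knock-in means in virgins, since both use the same arrays. Cel was not lower in knock-in virgins (0.05), and its knock-in minus wild-type difference at day 18 was 0.21.

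Over all 24 arrays, Pearson correlations between genes mostly follow the contrast of the stages, and they are given as a description over 22219 genes with no missing value. Wap was most like Glycam1 (0.995), Csn2 (0.995) and Csn1s1 (0.985), and Glycam1 most like Wap, Csn2 (0.993) and Csn1s2a (0.987). Lao1 was most like Csn1s2b (0.991), Olah (0.982), the thioesterase that ends medium-chain fatty acids of milk, and Csn1s1 (0.977).

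Wfdc18 was most like Csn3 (0.993), the kappa-casein gene, Cldn7 (0.988), a tight-junction gene of the luminal epithelium, and Irx2 (0.987). Lalba and Folr1 were most like Slc28a3 (0.991 and 0.995), a nucleoside transporter, and both had Stx3, an apical syntaxin, among their 3 (0.982 and 0.990); Lalba had Folr1 (0.984) and Folr1 had Barx2 (0.992). Spp1 was most like Cytip (0.989), Ccdc74a (0.988) and Slc39a14 (0.987), a zinc and manganese transporter. Cel was most like B3gat1 (0.992), a transcript named in the files only by its position (0.991) and Saa1 (0.991). The lowest correlation between members was that of Wap with Wfdc18, 0.862.

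Partners and relatives of the 8 genes moved less uniformly. Beside the list counts that follow, 43.2% of all genes were called in either direction in knock-in and 41.8% in wild-type mice. Of 25 other milk proteins and secretion genes, 24 were tested, and 23 were higher, 0 lower and 1 not called in knock-in mice, against 21, 0 and 3 in wild-type mice, with median differences of 4.86 and 3.84. Csn1s1 rose by 13.07 ± 1.28 in knock-in and 9.74 ± 1.28 in wild-type mice, and Olah by 12.56 ± 1.00 and 11.33 ± 1.00 (limma, adjusted p from 1.66e-09 to 2.43e-06). In knock-in virgins Csn1s1 was well above background on 3 and Olah on 4 of the 7 arrays, and with the dim arrays held at the lowest such signal their knock-in rises were 12.76 and 11.80. These lists were chosen with earlier results of these data known.

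The list of the whey acidic protein family held 21 names beside Wap and Wfdc18, among them Expi, a synonym of Wfdc18. Of these names, 9 were tested. Of the tested genes, 5 were higher and 2 lower in knock-in mice, against 5 higher and 3 lower in wild-type mice. Wfdc3 rose by 10.45 ± 0.81 in knock-in and 8.34 ± 0.81 in wild-type mice, and Wfdc12 by 6.23 ± 0.42 and 5.91 ± 0.42. Wfdc5 was well above background in 1 of 7 knock-in and 0 of 7 wild-type virgins, so it passed the filter on dim probes only through day-18 glands. In wild-type mice it was at least 8.49-fold higher at day 18. On the values as measured, that log2 difference was 5.36 (limma, adjusted p = 3.26e-12). Slpi, a secreted protease inhibitor, rose by 3.89 ± 0.67 in knock-in and 1.83 ± 0.67 in wild-type mice, and Wfdc2 fell by 2.62 ± 0.78 in knock-in and fell by 4.50 ± 0.78 in wild-type mice.

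Of the 10 lactose synthesis partners of Lalba, 5 were higher in each genotype, 2 lower in knock-in and 1 lower in wild-type mice. B4galt1, the enzyme that alpha-lactalbumin modifies, rose by 3.85 ± 0.27 in knock-in and 3.66 ± 0.27 in wild-type mice (limma, adjusted p = 1.69e-10 and 4.36e-10). Slc2a1, the glucose transporter GLUT1, rose by 2.27 ± 0.27 and 1.78 ± 0.27, and Slc35a2, the UDP-galactose transporter of the Golgi, by 0.86 ± 0.23 and 0.68 ± 0.23. Pgm1, a phosphoglucomutase, fell by 1.48 ± 0.41 and 1.47 ± 0.41. Of 8 lysozyme relatives of Lalba, 4 were tested; Lyzl6 rose by 3.47 ± 0.53 and 3.96 ± 0.53, and Lyz1 and Lyz2 fell by 0.96 and 0.82 in knock-in and by 1.01 and 0.85 in wild-type mice.

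The 10 tested osteopontin receptors and relatives of Spp1, of 14 listed, gave 2 higher and 5 lower in each genotype. Itga8, an integrin subunit that binds osteopontin, rose by 3.99 ± 0.30 in knock-in and 3.33 ± 0.30 in wild-type mice, while Cd44 fell by 1.07 ± 0.18 and 1.52 ± 0.18 and Itga4 by 1.15 ± 0.29 and 1.56 ± 0.29. Of 14 folate genes, 5 were higher and 2 lower in knock-in mice, and 6 higher and 3 lower in wild-type mice. The share called in knock-in mice is near the 43.2% of all genes. Folr2, a folate receptor of macrophages, fell by 1.96 ± 0.49 and 1.78 ± 0.49, and Slc19a1, the reduced folate carrier, fell by 2.32 ± 0.31 and 1.63 ± 0.31. Fpgs, which adds glutamates to folate within cells, rose by 1.62 ± 0.18 and 1.58 ± 0.18, and Shmt1 by 2.19 ± 0.26 and 2.45 ± 0.26.

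Of 9 amino acid oxidase and peroxide genes, 8 were tested, with 2 higher and 2 lower in each genotype. These calls are near the 43.2% and 41.8% of all genes called in either direction. Lpo, lactoperoxidase, which uses hydrogen peroxide in milk, rose by 6.21 ± 0.60 in knock-in and 7.25 ± 0.60 in wild-type mice (limma, adjusted p = 3.46e-08 and 3.72e-09), and Prdx4 by 2.31 ± 0.26 and 2.41 ± 0.26. Cat, catalase, fell by 2.03 ± 0.30 and 1.75 ± 0.30. Of 12 lipases and relatives of Cel, 7 were tested: 1 was higher and 4 lower in knock-in mice, and 1 higher and 3 lower in wild-type mice. Lipa, lysosomal acid lipase, rose by 2.90 ± 0.25 and 3.18 ± 0.25, and Lipe, hormone-sensitive lipase of adipocytes, fell by 1.90 ± 0.36 and 2.08 ± 0.36.

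Of 12 L-selectin ligand and mucin relatives of Glycam1, 11 were tested, with 5 higher and 6 lower in knock-in mice and 5 higher and 5 lower in wild-type mice. The 4 largest changes were rises of membrane mucins. Muc4 rose by 7.67 ± 0.64 in knock-in and 7.74 ± 0.64 in wild-type mice, Muc15 by 7.14 ± 0.67 and 6.21 ± 0.67, Muc1 by 5.48 ± 0.53 and 5.77 ± 0.53, and Muc20 by 5.41 ± 0.51 and 4.54 ± 0.51.

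All 20 listed regulators of milk protein transcription were tested: 8 were higher and 2 lower in knock-in mice, and 6 higher and 2 lower in wild-type mice. These 10 and 8 calls among 20 genes are near the 43.2% and 41.8% of all genes called in either direction. Elf5 rose by 6.70 ± 0.80 in knock-in and 5.56 ± 0.80 in wild-type mice, Cish, a STAT5 target and feedback inhibitor, by 3.27 ± 0.49 and 2.40 ± 0.49, and Id2 by 2.41 ± 0.25 and 1.90 ± 0.25 (limma, adjusted p from 1.12e-07 to 0.000367). Socs1 fell by 1.43 ± 0.26 in knock-in and fell by 1.84 ± 0.26 in wild-type mice. In virgins Elf5 had a knock-in minus wild-type difference of −1.26 ± 0.73, with mouse 198 at −5.95, and Stat5a of −0.50 ± 0.24. None of the genes of these lists passed in either genotype comparison.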

How the data were processed

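Mammary gland RNA of 24 mice was measured on 1-colour (Cy3) mouse arrays. Per the file headers, the authors extracted spot intensity with Agilent Feature Extraction 12.0.3.2 (version per the submitters' processing notes), subtracting background and detrending within each array, with no scaling between arrays. The deposited value table holds log10 of the same processed signal for 62969 features, within 0.005 on every array; its column medians ran from 1.31 to 3.23. The deposited quality calls (0 or 1) marked spots well above background and outliers. Outlier spots were set missing, replicate spots averaged, and log2 intensity was taken relative to each array's 75th percentile. Probes well above background on 80% of the arrays of a group were kept (35117), and the brightest stood for its gene (22382 genes; 8109 had several probes, 162 values were missing). Probe names followed RefSeq accession (35405 probes), symbol (9124) or synonym (25); 12051 kept the file's name.

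Group means were fitted to all 24 arrays with limma 3.58.1 in R 4.3.3, with Benjamini-Hochberg adjustment over all genes and a threshold of 0.05, in a method tested on simulated data. A value after ± is the SE, or the SD where so marked, and intervals are 95%. Exact permutation tests used every split of the mice. The number of arrays limits the precision. Promoter and probe coordinates are on GRCm38.p6 and mm9, each as its source gives it.

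The members and lists were chosen with earlier results of these data known. Each member is named in every comparison, with the 3 genes most like it, and from each list the text takes examples among the up to 4 called genes with the largest differences; marker genes said to be undetected were chosen after their values were seen. Each array is a separate mouse, so p-values measure the spread between mice; litters are not given in the labels. Alternatives were quantile, median and spike-in scaling, normexp background, other filters, single probes, slide as a block, array weights, the deposited table, arrays left out, the compared groups alone, and marker levels as covariates.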

Additional observations from a re-analysis of the deposited data

Results flagged for a closer look

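For each of the 8 genes in each of the 4 groups, the gland farthest from the others was compared with the range of its group. Of these 32 sets, 4 held a gland that stood apart by Dixon's criterion, all in knock-in virgins. Chance gives about 1 in 20 for separate sets. Most of the 4 come from mouse 198, and single glands were high or low in several of the genes at once. The 32 sets are therefore not separate trials, and the count cannot be set against that share. Knock-in virgin 198 had Lalba at −3.24, with the nearest gland at −0.93, Wfdc18 at −1.82, with the nearest at 1.72, and Folr1 at −3.90, with the nearest at −1.22. That mouse also had the lowest luminal marker level, −3.99, and the highest skeletal muscle marker level, 6.92, of its group. Knock-in virgin 376 had Cel at −0.07, with the nearest gland at −1.98, on the array with the raised negative-control signal. The part of these values in the low or high readings was not tested.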

How the results depend on the processing

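All 8 genes passed as higher at day 18 in both genotypes, and none passed by genotype or interaction, under all alternatives run; the compared groups alone give no interaction value. No paired analysis was possible because every mouse has its own number. Over all genes, the calls between stages in wild-type mice were 5316 with median scaling, 14807 with spike-in scaling and 14080 with array weights; in knock-in mice they were 5068 with median scaling and 4695 with marker covariates. Leaving out single arrays gave 8374 to 12367 calls in knock-in and 8202 to 12822 in wild-type mice, the highest without mouse 376. With spike-in scaling 1372 genes were higher and 11644 lower in knock-in mice, and 1142 higher and 13665 lower in wild-type mice, against 5117 and 4541 in knock-in and 4686 and 4671 in wild-type mice, and the median gene moved to −0.78 and −0.91. With normexp background 5108 were higher and 3191 lower in knock-in mice. Between genotypes, 23 genes were called in virgins with array weights and 1 without mice 376, 184 and 198; at day 18 1 was called with quantile normalization and 1 without those mice.

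Genotype differences of single genes changed sign under some settings, none of them called; the cause was not tested. In virgins, Lalba was 0.13 without mouse 198, 0.11 without the 3 mice and 0.39 with marker covariates. Cel in virgins was −0.34 with median scaling, −0.0525 with slide as a block, −0.49 with array weights, −0.36 without mouse 376 and −0.32 without the 3 mice. The second Folr1 probe gave 1.00 in virgins and −1.10 for the interaction. At day 18, median scaling gave −0.35 for Wap, −0.30 for Lalba, −0.33 for Glycam1, −0.31 for Wfdc18, −0.0590 for Spp1 and −0.16 for Cel. Slide as a block gave −0.33 for Wap, −0.10 for Lalba and −0.20 for Glycam1, marker covariates −0.57, −0.0408 and −0.34, and quantile normalization −0.10 for Wap. The interaction of Lalba was −0.0551 without mouse 198, −0.0759 without the 3 mice and −0.43 with marker covariates, and that of Folr1 −0.18 with marker covariates.

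Leaving out single arrays turned the sign of Cel (−0.36 to 0.20) and Lalba (−0.70 to 0.13) in virgins, of the Lalba interaction (−0.0551 to 0.77), and at day 18 of Folr1 (−0.37 to 0.0249), Glycam1 (−0.0692 to 0.13), Lalba (−0.0894 to 0.20), Wap (−0.10 to 0.11) and Wfdc18 (−0.0659 to 0.15).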

Other observations

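Other cell types of the gland moved with stage alongside the 8 genes. Of 10 basal and myoepithelial markers, 9 were higher at day 18 in knock-in and 6 in wild-type mice, against 22.9% and 20.9% of all genes. The median differences of these markers were 2.08 and 1.70. Acta2, smooth muscle actin, rose by 2.67 ± 0.40 and 2.40 ± 0.40 (limma, adjusted p = 1.19e-05 and 4.53e-05). Of 11 white adipocyte markers, 8 were lower in knock-in and 7 in wild-type mice, with median differences of −1.67 and −1.45. In either direction, 43.2% and 41.8% of all genes were called. Plin1, the perilipin of fat droplets, fell by 2.91 ± 0.35 and 2.65 ± 0.35. None of the 11 skeletal muscle markers passed in any comparison. Their median knock-in minus wild-type difference was 3.95 at day 18 and 1.71 in virgins.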
